A study of Mus musculus with 18 samples.

Results

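A set of 10 genes that hold back the cell cycle or belong to the p53 pathway were followed through RNA sequencing of neonatal mouse cardiac fibroblasts. They are Cdkn1a, Cdkn1b, Cdkn2a, Cdkn2b and Cdkn2c (inhibitors of cyclin-dependent kinases), Trp53 (p53 itself), Mdm2, Ccng1, Gadd45a and Btg2. They were chosen by name and found by their gene symbols, and all 10 were among the 55453 symbols of the count table. Of these symbols 28906 had at least 1 count and 16170 passed the filter on low counts. Of the 10 genes 9 passed this filter and were tested, and Cdkn2a was not.

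The cells were GFP-positive cells sorted from ventricular tissue near the apex. The pups were Tcf21-MerCreMer; Rosa-mTmG (labelled C57BL/6J), in which 4-hydroxytamoxifen at postnatal day (P) 1 switches the label from tdTomato to GFP in cells that express Cre from the Tcf21 locus, and in their descendants. Pups carried 1 allele of each transgene, and all 6 groups shared genotype, tamoxifen and sort. There were 3 libraries in each of 6 groups. P2 baseline and P10 baseline pups had no surgery and were collected at P2 and P10. Sham surgery or resection of the ventricular apex was done at P2, within the regenerative window, or at P10, after it, and hearts were collected 3 days later (P5 and P13). These groups are called P2 sham, P2 resected, P10 sham and P10 resected. The 9 libraries of the P2 groups are called the P2 window and the 9 of the P10 groups the P10 window. Neither the pups' sex nor how many were pooled for a library is in the labels, which also do not say that replicates were separate litters, so p-values measure the spread between these libraries only. The enzymatic digestion was longer at later postnatal ages, so age and digestion time cannot be told apart. With tamoxifen fixed at P1, time since labelling also rose with age and cannot be told apart from it.

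The cell cycle is driven by cyclin-dependent kinases. The Cip/Kip inhibitors (p21 from Cdkn1a, p27 from Cdkn1b) bind cyclin-kinase complexes, whereas the Ink4 inhibitors (p16 from Cdkn2a, p15 from Cdkn2b, p18 from Cdkn2c) bind the kinases Cdk4 and Cdk6 and keep the retinoblastoma protein active. The transcription factor p53 is regulated mainly at the protein level. It is held low by the ubiquitin ligase Mdm2 and, after stress, raises transcription of Cdkn1a, Mdm2, Ccng1, Gadd45a and Btg2, most of which are also induced without p53 by growth factors or cell stress. Cardiac fibroblasts divide in the first days after birth and slow down as the heart matures.

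The promoters of the 3 genes that were higher in the P10 window are shown because these genes share this direction. Each line holds the 250 bases before a RefSeq start (GRCm38.p6), 5′ to 3′ on the strand of the gene. Cdkn1a has 2 such starts, of which the first is shown. Capitals mark the p53 decamer, the 10-base unit of the p53 binding motif, in Cdkn1a (chr17:29090729-29090978, plus strand) and Gadd45a (chr6:67037408-67037657, minus strand), and the cyclic AMP response element TGACGTCA in Btg2 (chr1:134079156-134079405, minus strand).
Cdkn1a: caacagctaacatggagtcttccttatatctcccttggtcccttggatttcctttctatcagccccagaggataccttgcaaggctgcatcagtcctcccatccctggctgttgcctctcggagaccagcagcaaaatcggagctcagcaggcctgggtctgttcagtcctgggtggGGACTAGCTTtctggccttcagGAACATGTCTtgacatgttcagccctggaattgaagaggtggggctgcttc
Gadd45a: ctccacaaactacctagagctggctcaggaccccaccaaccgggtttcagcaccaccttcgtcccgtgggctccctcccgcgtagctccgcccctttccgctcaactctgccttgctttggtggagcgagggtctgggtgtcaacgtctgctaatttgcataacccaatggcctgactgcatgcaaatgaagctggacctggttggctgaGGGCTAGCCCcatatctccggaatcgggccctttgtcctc
Btg2: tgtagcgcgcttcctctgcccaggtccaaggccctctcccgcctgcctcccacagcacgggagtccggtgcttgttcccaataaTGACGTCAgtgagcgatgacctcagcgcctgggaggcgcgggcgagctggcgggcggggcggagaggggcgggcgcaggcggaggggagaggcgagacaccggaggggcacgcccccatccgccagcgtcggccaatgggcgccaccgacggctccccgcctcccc

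The window of the first Cdkn1a start held a pair of decamers, from 73 to 42 bases before the start, and that of the second start (chr17:29093519-29093818) held no decamer. The pair had a gap within the 13 bases allowed for a p53 site. Only 24 of the 32851 mouse promoter windows searched on both strands (0.0731%) held such a pair. At least 1 decamer was in 8.36% of the windows, and Gadd45a, Mdm2, Ccng1 and Trp53 each had 1. TGACGTCA was in 1.79% of windows, among them those of Btg2, 166 to 159 bases before the start, and Cdkn2b. The AP-1 motif TGANTCA, found in 7.81% of windows, was in none of the windows of the 10 genes. These are matches of letters in a short window and were not tied to binding.

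Total counts ran from 10462737 to 22980554 per library, so that 3 counts, the limit that a count of 0 allows, correspond to 0.128 to 0.296 CPM (counts scaled to a library size of 1000000 reads after TMM correction). This limit covers counting error only, whereas the 95% intervals of fold changes below come from the edgeR fit and include the spread between libraries. The fibroblast markers Tcf21 (202.5 to 447 CPM) and Pdgfra (256 to 878 CPM) were present in every library. A set of 4 libraries stood apart by the heat shock genes Hspa1a and Hspa1b, which summed to 166 to 222 CPM in P2 sham replicate 1, P2 resected replicate 3, P10 baseline replicate 1 and P10 sham replicate 1, and to at most 52.0 CPM in the other libraries. The results on age are therefore also given from a fit without these 4 libraries. That fit holds 2 libraries each of P2 sham, P2 resected, P10 baseline and P10 sham. In such bulk samples, fewer cells of a type and less RNA per cell cannot be told apart.

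The first question was whether these genes differed between the regenerative and the later window. Gadd45a, Btg2 and Cdkn1a rose in the P10 window and Cdkn2c fell, each called at an adjusted p under 0.05 with edgeR's quasi-likelihood test (Benjamini-Hochberg over 16170 genes). Gadd45a rose 3.14-fold, Btg2 2.05-fold and Cdkn1a 1.55-fold, whereas Cdkn2c reached 0.586 of its P2 level. Thus 4 of 9 tested genes were called, 3 higher and 1 lower, where 13.5% of all tested genes were called, 7.11% higher and 6.39% lower. The median log2 fold change was 0.07 over the 9 genes and -0.06 over all genes. No gene of the 9 had separate ranges in the 2 windows (2.51% of all genes had). Trp53 (log2 fold change -0.20, adjusted p = 0.301), Mdm2 (-0.45, 0.108), Ccng1 (-0.50, 0.0859), Cdkn1b (0.07, 0.932) and Cdkn2b (0.22, 0.919) were not called by edgeR. These comparisons and those within each surgical arm below use the same libraries. The window value is a mean of the baseline, sham and resected differences. For Cdkn1a these were log2 1.10, 0.17 and 0.62, and for Cdkn2c -0.41, -1.37 and -0.54.

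Without the 4 libraries of high Hspa1a and Hspa1b, the 4 calls of the window comparison were kept, with Gadd45a at log2 1.75 (edgeR adjusted p = 2.03e-05), Btg2 at 1.19 (0.000246), Cdkn1a at 0.78 (0.000911) and Cdkn2c at -0.84 (0.0131). Mdm2 and Ccng1 were added, lower at P10, and 19.6% of all genes were called in that fit. Cdkn1b then had a log2 fold change of -0.27 (adjusted p = 0.359), the opposite sign of the full fit, Cdkn2b 0.63 (0.535) and Trp53 -0.12 (0.574).

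**Figure D1:**
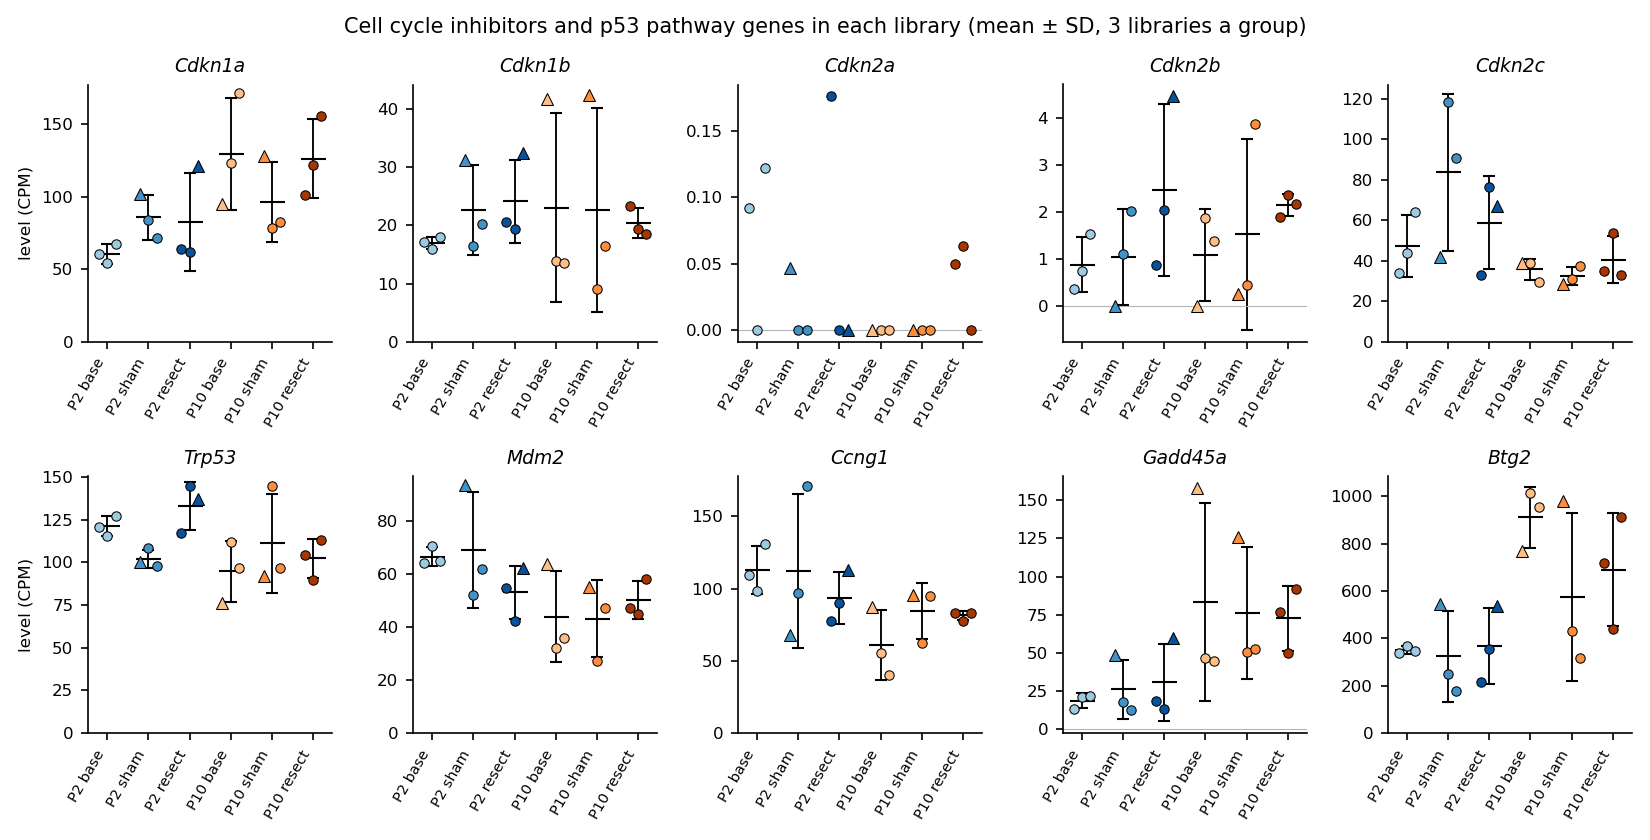
Level of each of the 10 genes in CPM (y axis, from 0, own scale for each gene) in every library (points) of the 6 groups (x axis), with the group mean and SD as bars (3 libraries a group; no bars for Cdkn2a, which had 0 to 3 counts a library). Triangles are the 4 libraries with Hspa1a and Hspa1b over 100 CPM, which held the highest Gadd45a and Cdkn1b of their groups, and Gadd45a lay at 12.7 to 59.9 CPM in P2 groups and 44.6 to 158 CPM in P10 groups.

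Among the Cip/Kip inhibitors, Cdkn1a (chr17:29090976-29100727, plus strand), which encodes p21, had 60.3, 54.1 and 67.6 CPM in the P2 baseline libraries (replicates 1, 2 and 3). It had 102, 84.2 and 71.3 CPM in P2 sham and 64.1, 61.8 and 121 CPM in P2 resected. In the P10 window it had 94.8, 123 and 171 CPM at baseline, 128, 78.6 and 82.7 CPM after sham and 101, 122 and 156 CPM after resection. All baseline libraries of P10 lay above all of P2, whereas the sham and resected ranges overlapped. Over the windows the mean was 76.3 ± 22.2 CPM (SD, n = 9) at P2 and 118 ± 31.7 CPM at P10 (log2 fold change 0.63, SE 0.17, edgeR adjusted p = 0.0221). This call was lost without P2 resected replicate 1 (adjusted p = 0.0522) or 2 (0.0550), or P10 baseline replicate 3 (0.0549). Of the exon bases of Cdkn1a, 7.68% overlap an antisense gene, AC167363.2, and the counting did not use strand.

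Cdkn1b (chr6:134920401-134925513, plus strand), which encodes p27, had 17.1, 15.9 and 18.0 CPM in P2 baseline, 31.3, 16.4 and 20.3 CPM in P2 sham, and 20.6, 19.4 and 32.4 CPM in P2 resected. At P10 the values were 41.7, 13.9 and 13.5 CPM at baseline, 42.4, 8.99 and 16.5 CPM after sham, and 23.3, 19.3 and 18.5 CPM after resection. The high values were those of the 4 libraries with high Hspa1a and Hspa1b, each the highest of its group, and the windows overlapped almost entirely (log2 fold change 0.07, 95% interval -0.54 to 0.67).

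Of the Ink4 inhibitors, Cdkn2a (chr4:89274471-89294653, minus strand), whose p16 and Arf products mark senescent cells, had 10 counts in all 18 libraries together. There were 4 counts in P2 baseline, 1 in P2 sham, 3 in P2 resected, 2 in P10 resected and none in P10 baseline or P10 sham. No library had more than 3, which is at or below the detection limit, so no fold change is given. Cdkn2b (chr4:89306299-89311039, minus strand), its neighbour, encodes p15 and was also low. It had 0.368, 0.744 and 1.52 CPM in P2 baseline, 0, 1.11 and 2.02 CPM in P2 sham, and 0.880, 2.05 and 4.46 CPM in P2 resected. The P10 values were 0, 1.87 and 1.38 CPM at baseline, 0.250, 0.453 and 3.87 CPM after sham, and 1.89, 2.35 and 2.18 CPM after resection. The P10 resected libraries held only 28 to 38 counts each, and the interval of the P10 over P2 difference was wide (log2 -1.55 to 1.98).

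Cdkn2c (chr4:109660876-109667189, minus strand), which encodes p18, was the most abundant of the 3 Ink4 genes followed here. It had 34.0, 43.6 and 64.3 CPM in P2 baseline, 41.8, 118 and 90.9 CPM in P2 sham, and 33.1, 76.3 and 67.2 CPM in P2 resected. The P10 values were 38.8, 38.8 and 29.5 CPM at baseline, 28.7, 31.2 and 37.4 CPM after sham, and 34.8, 53.8 and 33.1 CPM after resection. The 9 P10 libraries spread from 28.7 to 53.8 CPM and the 9 P2 libraries from 33.1 to 118 CPM. Window means were 63.3 ± 28.7 CPM at P2 and 36.2 ± 7.62 CPM at P10, and the level fell by 0.77 on the log2 scale (SE 0.22, edgeR adjusted p = 0.0245). This call was lost, at adjusted p from 0.0514 to 0.0614, without any 1 of 7 libraries, namely P2 baseline replicate 3, P2 sham replicate 2, P2 resected replicates 2 and 3, P10 baseline replicate 3, and P10 resected replicates 1 and 3.

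Within the p53 core, Trp53 (chr11:69580359-69591873, plus strand) had the narrowest range relative to its level of the 10 genes. It had 121, 115 and 127 CPM in P2 baseline, 100, 108 and 98.0 CPM in P2 sham, and 117, 144 and 137 CPM in P2 resected. At P10 it had 76.0, 112 and 96.6 CPM at baseline, 92.3, 145 and 96.5 CPM after sham, and 104, 90.0 and 113 CPM after resection. The lowest library was 76.0 and the highest 145 CPM, both at P10 (window means 119 ± 15.8 CPM at P2 and 103 ± 19.4 CPM at P10, SD, n = 9). The 95% interval of the log2 difference ran from -0.46 to 0.05.

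Mdm2 (chr10:117688875-117710758, minus strand), both a target and the main antagonist of p53, had 64.1, 70.4 and 64.8 CPM in P2 baseline, 93.4, 51.9 and 61.6 CPM in P2 sham, and 54.7, 42.3 and 62.0 CPM in P2 resected. It had 63.5, 32.2 and 35.9 CPM in P10 baseline, 55.1, 27.1 and 47.0 CPM in P10 sham, and 46.9, 44.9 and 58.1 CPM in P10 resected. Values at P10 were thus lower on average (45.6 ± 12.2 against 62.8 ± 14.2 CPM, SD, n = 9), with the 4 libraries of high Hspa1a and Hspa1b the highest of their groups. The difference was not called (log2 -0.45, SE 0.18, edgeR adjusted p = 0.108). It was called without these 4 libraries (log2 -0.51, adjusted p = 0.0270) and without P10 baseline replicate 1 alone (-0.58, 0.0264). Limma voom with sample weights (-0.56, 0.00754), by which 28.3% of all genes were called, and edgeR with replicate number as a block also called it. DESeq2 did not (adjusted p = 0.100). The difference stayed uncalled in 5 of 8 alternative fits and in 17 of 18 fits without 1 library.

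Ccng1 (chr11:40748552-40755311, minus strand), which encodes cyclin G1, a p53 target, had 110, 98.2 and 131 CPM in P2 baseline, 68.1, 96.9 and 171 CPM in P2 sham, and 77.9, 90.1 and 113 CPM in P2 resected. Its P10 values were 87.5, 55.4 and 40.2 CPM at baseline, 95.7, 62.2 and 95.2 CPM after sham, and 83.1, 78.0 and 83.4 CPM after resection. All P10 libraries lay under 100 CPM, as did 5 of the P2 libraries. Like Mdm2, Ccng1 was not called by the main test (log2 -0.50, SE 0.19, edgeR adjusted p = 0.0859). It was called without the 4 libraries (log2 -0.68, adjusted p = 0.00701) and with limma voom weights (-0.67, 0.00205). The same held without P2 sham replicate 1 alone (-0.59, 0.0316) or P10 baseline replicate 1 alone (-0.62, 0.0239). DESeq2 did not call Ccng1 (adjusted p = 0.0702), which stayed uncalled in 6 of 8 alternative fits and in 16 of 18 fits without 1 library.

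Gadd45a (chr6:67035096-67037457, minus strand), a stress-inducible p53 target that acts at the G2/M checkpoint, had the largest fold change of the 9 genes tested. It had 13.03, 20.9 and 21.9 CPM in P2 baseline, 48.3, 17.5 and 12.7 CPM in P2 sham, and 18.6, 13.2 and 59.9 CPM in P2 resected. At P10 it had 158, 46.8 and 44.6 CPM at baseline, 126, 50.3 and 52.2 CPM after sham, and 76.5, 49.6 and 91.6 CPM after resection. Only 2 P2 libraries, both with high Hspa1a and Hspa1b, reached the lowest P10 value. Window means were 25.1 ± 17.0 CPM at P2 and 77.3 ± 40.7 CPM at P10 (SD, n = 9; log2 fold change 1.65, SE 0.37, edgeR adjusted p = 0.00528). This call held without any 1 library (largest adjusted p = 0.0143). Of the exon bases of Gadd45a, 19.1% overlap the antisense gene E230016M11Rik, with reads counted without regard to strand.

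Btg2 (chr1:134075170-134079120, minus strand), an antiproliferative p53 target and immediate early gene, was the most abundant of the 10. It had 338, 367 and 348 CPM in P2 baseline, 543, 250 and 179 CPM in P2 sham, and 215, 355 and 535 CPM in P2 resected. It had 767, 1013 and 953 CPM in P10 baseline, 979, 430 and 316 CPM in P10 sham, and 718, 440 and 911 CPM in P10 resected. The replicates were tight at P2 baseline and spread widely after surgery at either age. Window means were 348 ± 127 CPM at P2 and 725 ± 267 CPM at P10 (SD, n = 9; log2 fold change 1.04, SE 0.25, edgeR adjusted p = 0.0102), and the call held without any 1 library (largest adjusted p = 0.0249).

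Per kilobase of exon, the mean level over 18 libraries was 196 CPM per kb for Btg2. Gadd45a (29.0), Trp53 (27.4), Cdkn1a (27.3) and Ccng1 (25.9 CPM per kb) were close to each other, followed by Cdkn2c at 18.5, Mdm2 at 10.7 and Cdkn1b at 4.75 CPM per kb. Cdkn2b had 1.09 and Cdkn2a 0.0260 CPM per kb. When the 6 groups were ordered by mean CPM for each gene, neighbouring groups overlapped in their range, except P10 resected above P2 baseline for Cdkn1b and P2 baseline above P2 resected for Mdm2. Neither pair of groups was among the comparisons tested, and how many of all genes had separate ranges in these pairs was not counted. Nothing particular to Cdkn1b or Mdm2 can therefore be read from these exceptions.

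Each surgical arm was then compared on its own. At baseline, where the pups had no surgery, Cdkn1a was the only one of the 9 genes called (log2 fold change 1.10, SE 0.30, edgeR adjusted p = 0.0483), with means of 60.6 ± 6.77 CPM at P2 and 130 ± 38.7 CPM at P10 (SD, n = 3). Of all genes, 4.38% were called in this comparison, 2.71% higher. P10 baseline replicates 2 and 3, highest in Cdkn1a of that group, had the lowest mitochondrial shares of counts (0.253% and 0.198%). The other libraries had 0.442% to 1.07%, and the bearing of this on the call was not tested. The call of Cdkn1a stood close to the threshold. Leaving out 1 library kept it only when that library was P2 sham replicate 1, P2 resected replicate 3, P10 baseline replicate 1, P10 sham replicate 1 or P10 resected replicate 3, and the other 13 omissions gave adjusted p from 0.0510 to 0.221. Fitted on the 2 baseline groups alone, where 295 of all genes were called in place of 709, Cdkn1a was not called (adjusted p = 0.0796) and Btg2 was (log2 fold change 1.40, adjusted p = 0.0137).

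Of the 9 genes, 6 had separate ranges between the baseline groups (22.4% of all genes had), with Cdkn1a, Gadd45a and Btg2 higher and Trp53, Mdm2 and Ccng1 lower at P10. Gadd45a (log2 fold change 2.16, edgeR adjusted p = 0.0674), Btg2 (1.38, 0.0890), Ccng1 (-0.89, 0.1396), Mdm2 (-0.60, 0.322) and Trp53 (-0.36, 0.391) did not pass this test. Without the 4 libraries, or with another tool, more genes were called overall. DESeq2 called 3 of the 9 (Btg2, Cdkn1a and Gadd45a) and 10.1% of all genes with an adjusted p, and limma voom 5 of the 9 (these and Ccng1 and Mdm2) and 22.5% of all genes. Without the 4 libraries, edgeR called these 5 and 15.9% of all genes. Cdkn1a then had a log2 fold change of 1.28 (adjusted p = 0.00182), Mdm2 -0.97 (0.0219), Gadd45a 1.30 (0.0103) in place of 2.16, Btg2 1.49 (0.00319) and Ccng1 -1.24 (0.00793).

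After sham surgery, edgeR called none of the 9 genes between P10 and P2 (3.18% of all genes), 3 had an unadjusted p under 0.05 (16.3% of all genes had), and DESeq2 (7.73% of all genes) and limma voom (4.37%) each called Cdkn2c. Cdkn2c had means of 83.7 ± 38.7 CPM at P2 sham and 32.4 ± 4.49 CPM at P10 sham (SD, n = 3; log2 fold change -1.37, edgeR adjusted p = 0.0599), and its ranges were separate. Gadd45a also had separate ranges, with 48.3 CPM the highest at P2 and 50.3 CPM the lowest at P10 (log2 1.54, adjusted p = 0.235), so that 2 of the 9 genes did, and 16.7% of all genes. Its log2 fold change was 2.34 without P2 sham replicate 1 and 0.97 without P10 sham replicate 1, and was called in neither fit. Cdkn2c was called without P2 sham replicate 1 (log2 -1.69, adjusted p = 0.0146) or without P2 resected replicate 1 (-1.37, 0.0477). It was also called by edgeR with replicate number as a block. Cdkn2c and Gadd45a were called without the 4 libraries (-1.61, 0.0473 and 1.77, 0.0143), where 2.54% of all genes were and 2 libraries remained in each sham group.

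After resection, edgeR again called none between P10 and P2 (0.86% of all genes), no gene of the 9 had an unadjusted p under 0.05 (8.77% of all genes had), DESeq2 called none (3.63% of all genes) and limma voom Gadd45a (5.62% of all genes). The largest difference was that of Gadd45a, at 30.6 ± 25.5 CPM in P2 resected and 72.6 ± 21.3 CPM in P10 resected (log2 1.25, 95% interval -0.08 to 2.57). Btg2 (0.91, -0.02 to 1.83) and Cdkn1a (0.62, -0.02 to 1.25) followed. Trp53 was the 1 gene of 9 with separate ranges, lower at P10 (23.3% of all genes had separate ranges). Without the 4 libraries, Cdkn1a (1.00, adjusted p = 0.0454) and Gadd45a (2.191, 0.00506) were called, where 1.24% of all genes were, and Btg2 was not (1.27, 0.0503). Whether the P10 over P2 difference itself differed between baseline, sham and resected arms was not tested, except for sham against resected, which is the same contrast as the difference in resection effect given at the end.

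**Figure D2:**
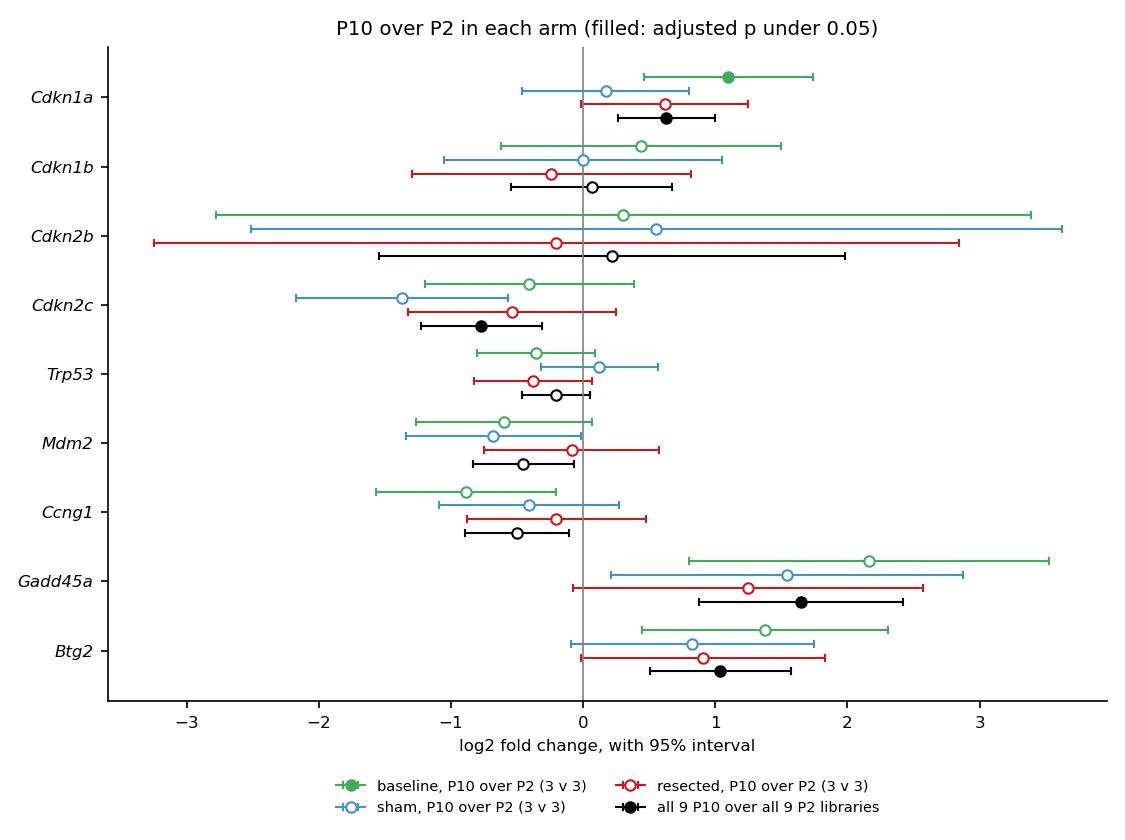
Log2 fold change of P10 over P2 (x axis) for the 9 tested genes (rows) at baseline, after sham, after resection and over all 9 against 9 libraries, with 95% intervals as bars; filled points have an edgeR adjusted p under 0.05. Gadd45a and Btg2 lay above 0 in all 3 arms and Cdkn2c, Mdm2 and Ccng1 below it, and Cdkn1a had its largest value, 1.10, at baseline.

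The libraries of high Hspa1a and Hspa1b were set beside the other libraries of their groups. In each of the 4 groups with a library of high Hspa1a and Hspa1b, that library had the highest Cdkn1b, Mdm2 and Gadd45a of its group. It had the highest Cdkn1a, Btg2 and Ccng1 in 3 of the 4 groups and never the highest Cdkn2c or Trp53. How many of all genes were highest in these libraries was not counted, so nothing particular to the genes followed here can be read from this. Gadd45a in these libraries was 3.20, 3.77, 3.46 and 2.46 times the mean of the other libraries of the group in P2 sham, P2 resected, P10 baseline and P10 sham. Cdkn1b was 1.70, 1.62, 3.05 and 3.33 times that mean, and Trp53 0.970, 1.05, 0.730 and 0.766 times. Btg2 was 2.54, 1.88 and 2.62 times in the 3 groups after surgery but 0.780 times at P10 baseline.

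**Figure D3:**
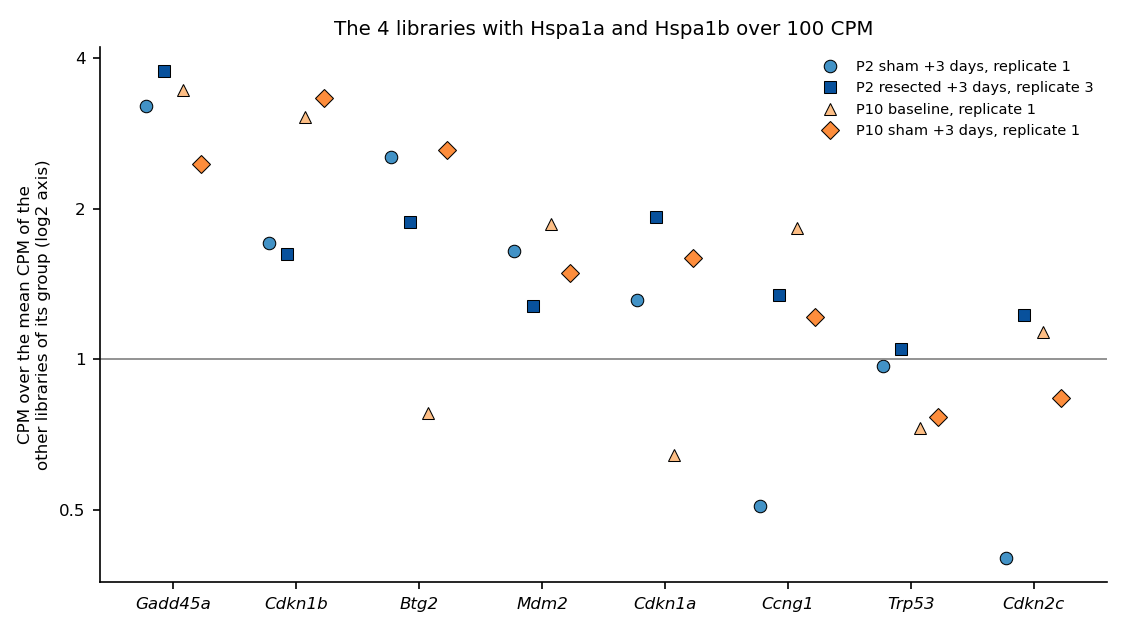
Ratio of the CPM in each of the 4 libraries with Hspa1a and Hspa1b over 100 CPM to the mean CPM of the other 2 libraries of its group (y axis, log2 scale), for 8 genes (x axis). Gadd45a and Cdkn1b lay above 1 in all 4 groups, from 1.62 to 3.77 times, whereas Trp53 lay between 0.730 and 1.05 times.

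Genes whose level followed that of each gene most closely over the 18 libraries were found by Pearson's r of log2 CPM among 10390 or 10391 genes, as a description, since the libraries share age, handling and depth. Btg2 was most like Atf3 (r = 0.93), Zfp36 (0.93) and Ppp1r15a (0.92), all stress-induced early genes. Gadd45a was most like Pnrc1 (0.94), Klf4 (0.94) and Fgl2 (0.93), and Cdkn1a like Junb (0.86), Slc35e4 (0.85) and Rarg (0.85). Cdkn1b was most like Zfand5 (0.91), Nr4a2 (0.89) and Ccser2 (0.87). Cdkn2c was nearest to the histone genes Hist1h4d (0.88), H3f3a (0.85) and H2afz (0.84). Mdm2 was nearest to Zfp131 (0.91), Sltm (0.91) and Pik3c2a (0.91), Ccng1 to Ppp1cb (0.93), Psmc6 (0.88) and Vma21 (0.88), Trp53 to Gusb (0.78), Fgd5 (0.76) and Rcl1 (0.75), and the low Cdkn2b to Ada (0.84), Rhoa (0.81) and Ogfod3 (0.80). Among the 9 genes themselves, Gadd45a and Btg2 (0.79), Cdkn1a and Btg2 (0.78) and Cdkn1a and Gadd45a (0.71) had the highest r. Cdkn1b and Mdm2 (0.63), Cdkn2c and Ccng1 (0.56) and Mdm2 and Ccng1 (0.55) followed. Cdkn1a had r of -0.24 with Mdm2 and -0.53 with Ccng1. Trp53 had r of -0.38 with Cdkn1a, -0.22 with Mdm2, 0.09 with Ccng1, -0.48 with Gadd45a and -0.27 with Btg2.

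The wider pathway was read from lists of textbook members, over the same P10 against P2 windows, in which 7.11% of all genes were called higher and 6.39% lower, with a median log2 fold change of -0.06. Of 39 other p53 targets tested, 6 rose and 4 fell at P10, and the median log2 fold change was -0.19. Those that rose included the death receptor Fas (log2 1.21, SE 0.25, edgeR adjusted p = 0.00306), and those that fell included Ckap2, which acts on the mitotic spindle (-2.29, SE 0.37, adjusted p = 0.000382), Psrc1 (-2.19) and Gtse1 (-1.90). Ckap2, Psrc1 and Gtse1 also belong to the S and G2/M list used below, and they are 3 of the 4 that fell. Of 13 regulators of p53, none rose and 2 fell, the checkpoint kinases Chek1 (-2.68, adjusted p = 0.000546) and Chek2 (-1.21, adjusted p = 0.00162). Among the 2 remaining kinase inhibitors of these families, Cdkn2d (p19) fell (-0.53, adjusted p = 0.0348) and Cdkn1c (p57) was at 193 ± 55.0 CPM at P2 and 169 ± 46.7 CPM at P10 (adjusted p = 0.536). Of 6 tested relatives of Gadd45a and Btg2, none was called, with a median log2 fold change of 0.69.

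Of the 97 S and G2/M phase genes, 86 fell and none rose (median log2 fold change -2.03), and they summed to 5564 to 8362 CPM in P2 libraries and 2228 to 3425 CPM in P10 libraries, with no overlap. Of 22 immediate early genes, 8 rose and none fell (median 0.68). Junb (1.37, adjusted p = 0.000313), Dusp1 (1.25), Jun (1.09) and Fos (1.08), products of the early response to growth factors and to cell dissociation, changed most. The list summed to 4279 to 11304 CPM at P2 and 8522 to 18732 CPM at P10. Of 21 senescence-associated genes tested, 6 rose and 3 fell (median 0.58). The lamin Lmnb1 (-2.20) and the chromatin protein Hmgb2 (-2.15), the latter also a G2/M gene, fell. The calls of the matrix protease Mmp3 and the chemokine Ccl8, also higher at P10, rested on few libraries. Mmp3 had a median of 0 CPM at P2 and 4.85 CPM at P10, where P10 resected replicate 3 alone had 136 CPM and the mean of the other 8 libraries was 6.80 ± 7.38 CPM (SD). Its call was lost without P10 baseline replicate 1, without the 4 libraries and with limma voom, and that of Ccl8 (medians of 0 and 1.10 CPM) without P10 baseline replicate 3. Both genes had a P2 group with all libraries at 0, for which the mean of groups on the log scale is not defined, so no fold change is given. Of the 16170 genes tested, 1482 had such a group, none of them among the 9, and without them 13.6% of genes were called in place of 13.5%.

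Markers of other cell types were counted in the same comparison, in which 13.5% of all genes were called. Cardiomyocyte markers summed to 351 to 1631 CPM at P2 and 179 to 886 CPM at P10, and 6 of 12 fell. Macrophage markers summed to 7.76 to 461 CPM at P2 and 18.99 to 1116 CPM at P10, 2 of 15 rose (Cd14 and Itgam, the latter at 0 in all P2 baseline and P2 sham libraries), and Ptprc was at 0 in 4 libraries. Of 9 mural markers 4 rose, of 9 fibroblast markers 4 rose, and of 9 endothelial markers none was called. Of 8 epicardial markers tested Tbx18 fell, Wt1 being at 0 in 6 libraries, and of 6 erythroid markers Hba-a1 rose. The part of these cells, of the immediate early genes and of the longer digestion in the differences of Gadd45a, Btg2, Cdkn1a and Cdkn2c was not tested.

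**Figure D4:**
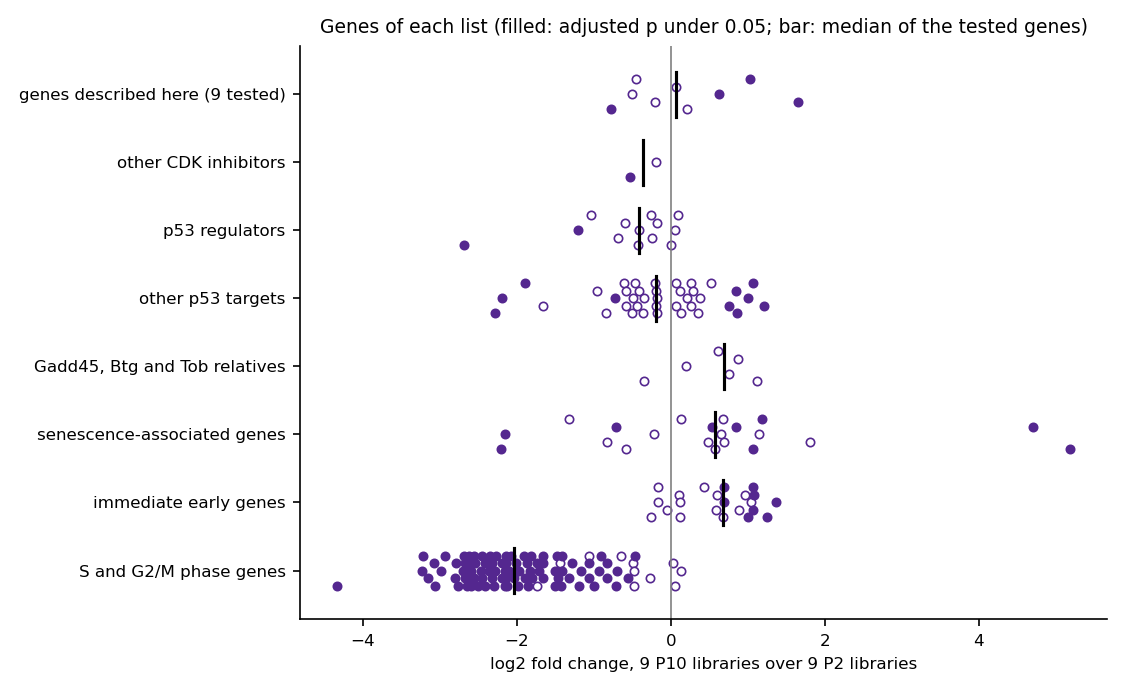
Log2 fold change of the P10 over the P2 window (x axis) for each tested gene of 8 lists (rows); filled points have an edgeR adjusted p under 0.05 and the black bar is the median of the list. The 97 S and G2/M phase genes centred on -2.03 and the 22 immediate early genes on 0.68, while the 9 tested genes of the first row spread from -0.77 to 1.65.

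The second question was whether injury changed these genes. Resection against sham gave no call at P2, at P10, over both ages together, or for the difference between the ages, by edgeR, DESeq2 or limma voom, and none of the 9 genes had an unadjusted p under 0.05 in any of the 4 comparisons, where 4.51%, 4.09%, 5.78% and 2.88% of all genes had. At such shares, none of 9 is close to the background. No other gene was called by edgeR either (0% of 16170), whereas over the 4 comparisons DESeq2 called 24 to 87 of all genes, limma voom 0 to 51, edgeR with no filter 24 to 96 and edgeR without the 4 libraries 0 to 188. Cdkn1a averaged 85.8 ± 15.4 CPM in P2 sham and 82.4 ± 33.7 CPM in P2 resected (SD, n = 3; log2 -0.06, 95% interval -0.69 to 0.57). At P10 it averaged 96.6 ± 27.7 CPM after sham and 126 ± 27.6 CPM after resection (log2 0.39, -0.24 to 1.02). Trp53 was the only gene with separate ranges at P2, 98.0 to 108 CPM after sham and 117 to 144 CPM after resection (log2 0.38, -0.06 to 0.83). That is 1 of 9 genes, beside 8.47% of all genes, and at P10 none of the 9 and 8.68% of all genes had separate ranges.

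Over both ages together the intervals were narrowest for Trp53 (log2 -0.18 to 0.45), Cdkn1a (-0.28 to 0.61), Mdm2 (-0.55 to 0.38) and Ccng1 (-0.63 to 0.32). They were wider for Gadd45a (-0.85 to 1.00) and widest for Cdkn2b (-1.31 to 3.04). For this mean of both ages, a doubling of Trp53, Cdkn1a, Mdm2, Ccng1, Cdkn1b, Cdkn2c or Btg2 by resection lay outside the single-gene 95% interval, and one of Cdkn2b within it. At a single age the interval reached past a doubling for Cdkn1a at P10 (to 1.02), Cdkn2c at P10 (to 1.11), Cdkn1b at P2 (to 1.14) and Btg2 at P2 (to 1.10) and P10 (to 1.18), besides Gadd45a and Cdkn2b. In the other direction it reached below -1 for Cdkn2c (to -1.29) and Mdm2 (to -1.04) at P2 and Cdkn1b at P10 (to -1.21), again besides Gadd45a and Cdkn2b. The difference in resection effect between P10 and P2 was 0.45 for Cdkn1a (-0.45 to 1.34), 0.83 for Cdkn2c (-0.28 to 1.95) and -0.50 for Trp53 (-1.13 to 0.13).

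**Figure D5:**
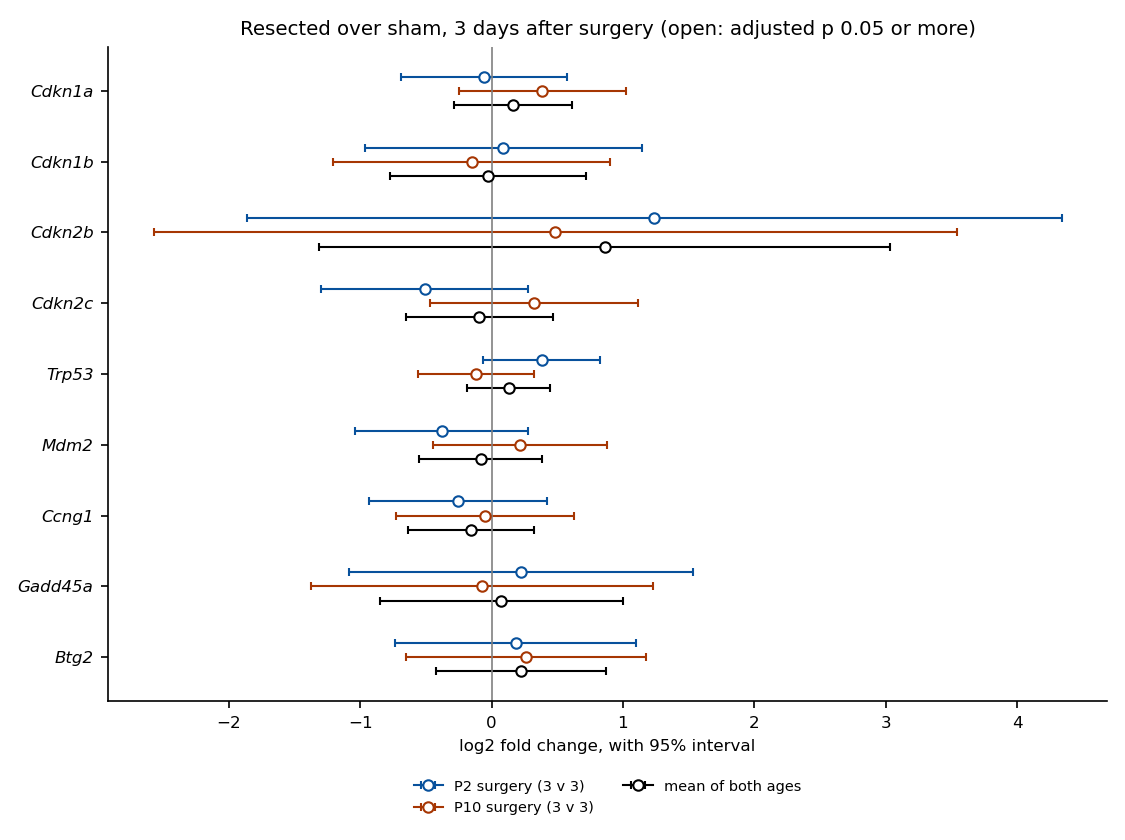
Log2 fold change of resected over sham (x axis) for the 9 tested genes (rows) at P2, at P10 and as the mean of both ages, with 95% intervals as bars; all points are open since none had an adjusted p under 0.05. Every interval includes 0, and those of Cdkn2b are the widest.

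Sham-operated hearts were finally set against baseline hearts, a comparison in which surgery and 3 days of growth go together. At P2 edgeR called none of the 9 genes (0% of all genes), and neither did DESeq2, which called 180 of all genes, or limma voom, which called 0. Of the 9 genes, 2 had separate ranges, Cdkn1a higher (71.3 to 102 CPM after sham, 54.1 to 67.6 CPM at baseline) and Trp53 lower (98.0 to 108 and 115 to 127 CPM), where 9.96% of all genes had. Cdkn2c was the 1 gene of 9 with an unadjusted p under 0.05 (7.60% of all genes had), at 0.0424 (log2 0.82, edgeR adjusted p = 0.642), at 47.3 ± 15.5 CPM at baseline and 83.7 ± 38.7 CPM after sham (SD, n = 3). At P10 none was called by the 3 tools and none had an unadjusted p under 0.05 (0.00618% of all genes were called by edgeR, 171 genes by DESeq2, and 7.40% had an unadjusted p under 0.05), and none of the 9 and 10% of all genes had separate ranges. Btg2 had the largest change in level, from 911 ± 129 CPM at baseline to 575 ± 355 CPM after sham (log2 -0.66, 95% interval -1.58 to 0.26).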

How the data were processed

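RNA of 18 sorted samples was pre-amplified (SMARTer Ultra Low Input), made into Nextera XT libraries and sequenced single-end. The authors trimmed reads (fastp 0.20.0), aligned them with STAR 2.7.0f to GRCm38.p6 and counted them over exons by gene name, without strand, with featureCounts (Subread 1.6.4). The deposited values are raw counts per gene symbol. Amplification without molecular identifiers means that reads are not independent molecules.

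Here counts were tested with edgeR 4.0.16 (R 4.3.3), one quasi-likelihood fit of all 6 groups with TMM scaling and filterByExpr at its defaults (minimum count 10, total 15), and Benjamini-Hochberg adjustment over all genes tested, with calls at 0.05. Intervals are 95%. DESeq2 1.42.0 and limma 3.58.1 (voom) were alternatives, with other scalings, filters, groups in the fit, a replicate block and each library left out. The fit without the libraries over 100 CPM of Hspa1a and Hspa1b was chosen after seeing the data. The fit was tested on simulated data. Levels are CPM on TMM-scaled library sizes. Gene positions and exon lengths are from GENCODE M21 on GRCm38 (the authors used the next release), promoters from RefSeq. S and G2/M genes came from Seurat 5.3.0.

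The genes and lists were chosen with earlier results of these data known. Of each list, up to 4 called genes with the largest change are named, and for each gene the 3 most alike genes (log2 of CPM plus 0.5, mean CPM of at least 5).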

Additional observations from a re-analysis of the deposited data

How the results depend on the processing

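Of 2421 values over all 9 genes, comparisons and alternatives, 140 had the opposite sign of the main fit, none of them called in either fit. Of 372 alternative values of the differences that were called or had an unadjusted p under 0.05, none changed direction, 315 stayed on their side of the threshold, 24 lost the call and 33 gained it. In the P10 against P2 window comparison the 4 calls ranged from 2 to 6 with each library left out, with 2 (Btg2 and Gadd45a) without P2 resected replicate 2 or P10 baseline replicate 3, and from 4 to 6 otherwise (all genes from 2183 to between 1680 and 2987 with each library left out, and to between 2198 and 4569 otherwise). At baseline the 1 call became 3 with no filter or DESeq2, 5 with limma voom or without the 4 libraries of high Hspa1a and Hspa1b (all genes went from 709 calls to 1155, 1654, 3645 and 2613), and 0 to 3 with each library left out (264 to 1207 of all genes). Fitted on the baseline groups alone, the 1 call was Btg2 in place of Cdkn1a. After sham the 0 calls became 2 with no filter or without the 4 libraries, 1 with limma voom or DESeq2 (all genes from 515 to 911, 416, 707 and 1272), and 0 to 1 with each library left out (312 to 627). After resection the 0 calls became 1 with no filter or limma voom and 2 without the 4 libraries (all genes from 139 to 526, 908 and 204). The causes were not tested. All counts for resection against sham and sham against baseline stayed at 0.

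The labels do not say that a replicate number marks a shared litter or day, and not every same-numbered pair correlated, so the numbers were not taken to pair the libraries. Deviations of same-numbered libraries of different groups had a mean correlation of 0.077, over 0.1 in 18 of 45 pairs, against -0.037 and 17 of 90 for different numbers, and 11 of 18 libraries were most alike to their own number, a hint from the data and not from the design. With a replicate block, Cdkn2c was called after sham (1 call, log2 -1.28, edgeR adjusted p = 0.0356) and Mdm2 in the windows (log2 -0.47, adjusted p = 0.0416). Over all genes the block moved calls from 515 to 636 after sham, from 2183 to 2745 in the windows and from 709 to 1008 at baseline. The calls at baseline (1), after resection (0) and in all comparisons of surgery (0) did not change in number. The depth limits what can be said of Cdkn2a and Cdkn2b.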
